A study of Mus musculus with 6 samples.

Results

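Sox6 chromatin was compared with input DNA at the start site of every protein-coding mouse gene, without use of the called peaks. The comparison took 4 of the 6 libraries of the series, namely 2 Sox6 immunoprecipitations (ChIP) and 2 inputs, and the other 2 libraries, of RNA polymerase II (Pol II), served only to describe the starts. All libraries came from myotubes of wild type C57BL/6 mice, which were induced over 48 h in low-serum medium from primary myoblasts of fetal (E18.5) limb muscle, and the labels give 17 passages. The 6 libraries share 1 genotype and 1 culture condition, and no library without Sox6 or with a control antibody was analysed here. Read 5' ends were counted within 1 kb to either side of 22225 gene starts of an NCBI Build 37 (mm9) annotation, and again within 5 kb, which is 10 kb in all. Of these, 20879 starts within 1 kb and 21620 within 5 kb had at least 10 reads over the 4 libraries and were tested.

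Sox6 belongs to the SoxD group of HMG-box transcription factors, which bind the minor groove of short AT-rich motifs and bend the DNA. SoxD proteins have no activation or repression domain of their own that is known and act with partner proteins. In skeletal muscle Sox6 is known for holding down slow fiber genes while fast fibers form, and elsewhere for its role in cartilage and in red blood cells. An excess of Sox6 over input reads at a gene start is a ratio of 2 libraries. Without a control antibody it cannot be told apart from other differences between a ChIP and its input, and it says nothing of whether the gene is on or off.

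The Sox6 libraries held 2985437 and 1468604 mapped reads and the inputs 21973495 and 24249850. The median start had 3 and 2 Sox6 reads within 1 kb, against 19 and 23 input reads, and 15 and 8 Sox6 reads within 5 kb. In replicate 2, 21.4% of the starts tested had no Sox6 read within 1 kb. A single start was therefore measured with little precision unless it held many reads. By Pol II reads over the gene, all 9 muscle markers were at least 2-fold over input in both replicates, between 5.79- and 120-fold, and Myh3, Actc1 and Acta1 were among the highest. The 5 fibroblast markers lay between 0.0825- and 1.79-fold, the 3 endothelial markers between 0.228- and 0.741-fold. Of the 4 blood markers only Cd68, a short gene that lies between Mpdu1 and Eif4a1, was over 2-fold in both, at 9.17- and 8.58-fold. The 3 neuronal, 2 liver and 2 cartilage markers included none over 2-fold in both replicates.

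Short stretches of 30 bases are shown for 6 genes on which the results turn, each around the Sox match nearest to the Sox6 read maximum. Capitals mark the Sox match, ACAAAG or ACAATG, and all positions are of Build 37. Those of Hdac11, Chrng and Hes6 lie within 1 kb of the start, and those of Myh7, Capza2 and Tpm3 lie further away.
Hdac11, chr6:91106273-91106302, minus strand, 371 bp before the start: gctggggccccaACAATGgaggccagaaga
Chrng, chr1:89102225-89102254, plus strand, 146 bp before the start: tgggaacagctgACAATGcagtggtcagac
Hes6, chr1:93310848-93310877, minus strand, 248 bp before the start: gcagcctgcaggACAAAGccagctagacaa
Myh7, chr14:55616379-55616408, minus strand, 2923 bp before the start: agtatgcagagaACAAAGcattttggaacc
Capza2, chr6:17581643-17581672, plus strand, 4576 bp before the start: cacccacatggaACAAAGcgtgttacaaac
Tpm3, chr3:89881302-89881331, minus strand, 4746 bp after the start: tcctagtgacaaACAATGcagcataccaac

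Over all gene starts together, Sox6 reads were somewhat more frequent than input reads. Within 500 bp of the start the ratio of Sox6 to input was 1.29 in replicate 1 and 1.54 in replicate 2, against 1.09 and 1.14 in the stretch between 4 and 5 kb before it. The highest 100 bp bins of the ratio lay 150 and 250 bp after the start, at 1.57 and 1.91. Both inputs were at their lowest 150 bp after the start, at 28.8 and 37.9 RPM (reads scaled to 1e6 mapped reads) per bin and 1000 starts, against means of 45.9 and 47.4 between 4 and 5 kb before it. Sox6 replicate 1 was itself at its lowest there, at 45.2 against a mean of 50.1 in that stretch, so that in replicate 1 the maximum of the ratio came with a fall of the input and not with a rise of Sox6. Sox6 replicate 2 rose from a mean of 54.0 in that stretch to 72.4 at 150 bp after the start. Within 500 bp the means were 52.1 and 71.9 for Sox6 and 40.4 and 46.8 for the inputs. The same sums for Pol II were 4.47 and 3.70 within 500 bp, with the highest bin 50 bp after the start in both replicates. These ratios cover 20865 starts and leave out 14 starts with over 300 reads in an input, which held 1.49% and 1.18% of the Sox6 reads and 0.264% and 1.43% of the input reads. Without them 2.21% (exact 95% interval 2.19 to 2.23) and 2.74% (2.72 to 2.77) of the Sox6 reads lay within 1 kb of a start, against 1.83% (1.82 to 1.84) and 2.01% (2.01 to 2.02) of the input reads. Both Sox6 shares lay above both input shares, but no exact permutation test of 2 libraries against 2 can reach the 0.05 threshold. With those starts included the order was the same but the inputs lay further apart, with 3.67% and 3.89% for Sox6 and 2.09% and 3.42% for input. The intervals cover counting error only, since reads are not independent molecules.

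**Figure D1:**
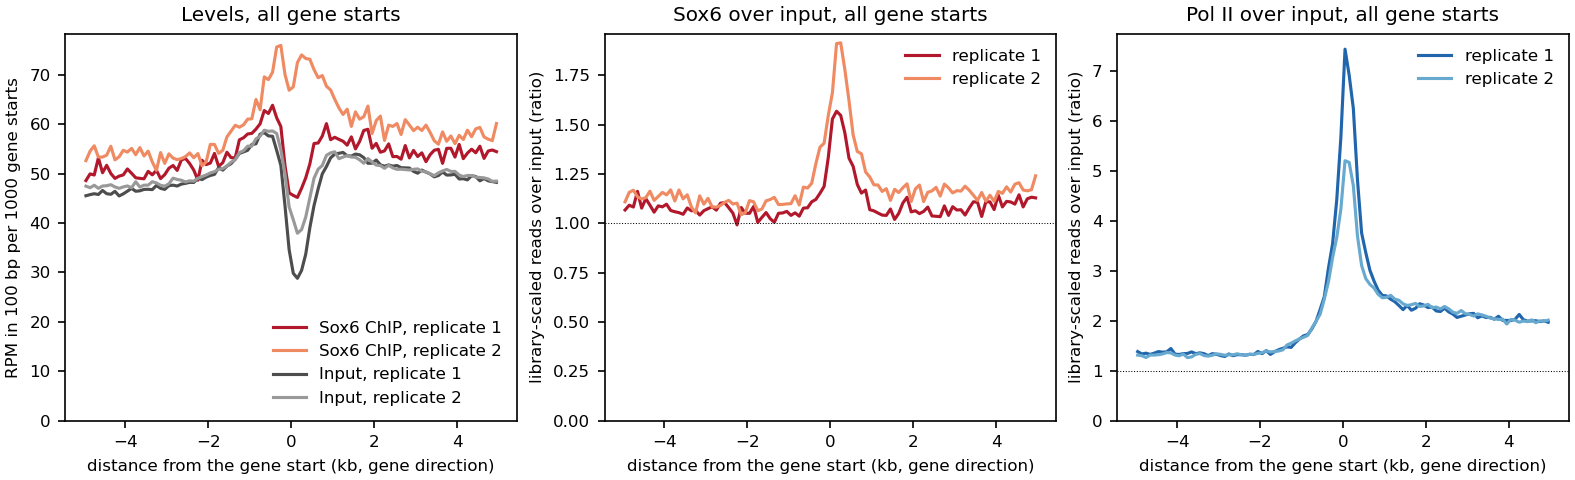
Reads in bins of 100 bp against the distance from the gene start in kb in the direction of the gene, over 20865 starts with 1 line per library, as the level in RPM per 1000 starts of Sox6 and input (left) and as the ratio to the input of the same replicate for Sox6 (middle) and Pol II (right), on linear axes from 0. The Sox6 ratio reaches 1.57 and 1.91 just after the start, where both inputs and Sox6 replicate 1 are low and Sox6 replicate 2 is high, and the Pol II ratio reaches 7.44 and 5.21.

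Over all starts tested, the log2 ratio of Sox6 over input had a median of 0.40 within 1 kb and 0.13 within 5 kb, and each change below is to be read against it. This general shift differed with base composition. In the quintile of starts with the lowest GC content, a median of 40.8% over the 2 kb window, the median log2 ratio was 0.09, and in the quintile with the highest, 60.3%, it was 0.73. By quintiles of input reads, which are also the denominator of the ratio, it fell from 0.73 in the lowest to 0.12 in the highest. By quintiles of Pol II level it moved less, between 0.34 and 0.43.

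By limma-voom with Benjamini-Hochberg adjustment at 0.05, 167 starts (0.8% of those tested) had more Sox6 than input within 1 kb and 4 (0.0192%) had less. Of the 167, 163 (0.781% of those tested) were raised in both replicates, meaning that Sox6 was also at least 2-fold over the input of the same number in each. They lay in 157 separate runs of windows, since neighbouring genes share reads. Within 5 kb, 455 starts (2.1%) had more Sox6 and 0 had less (0%), with 127 lower at an unadjusted p under 0.05 and 0 lower in both replicates by an exact binomial test. Of the 455, 176 (0.814%) were raised in both replicates, in 161 places after those with overlapping windows were merged. Only 28 starts were raised in both windows, 17.2% of the first set and 15.9% of the second.

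These counts rest on few reads and moved strongly with some choices of the processing. Within 1 kb, 71 of the 163 raised starts had at least 8 Sox6 reads in each replicate, a minimum chosen after the data were seen, and 27 had under 5 in a replicate. An exact binomial test of each replicate against its own input called 12 starts higher in both within 1 kb, and 101 within 5 kb. When log2 ratios were centred on the median start, 38 were called higher within 1 kb and 117 within 5 kb. With scaling to the reads in all windows, which include those 14 starts, 8 and 45 were. By limma trend without weights 91 and 8 were, and with 2 reads added to each count 1 and 8. Leaving out 1 library leaves 1 in its group, which is then assumed to vary like the 2 libraries of the other group. Without Sox6 replicate 1 the count within 1 kb was 616, and without input replicate 1 it was 38. Within 5 kb it was 123 without Sox6 replicate 1, 93 without Sox6 replicate 2, 291 without input replicate 1 and 1002 without input replicate 2. With the replicate number as a block it was 132 within 1 kb, where 19 were lower, and 2149 within 5 kb, where 268 were raised and 6 lower. The genes below are therefore described with their reads.

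**Figure D2:**
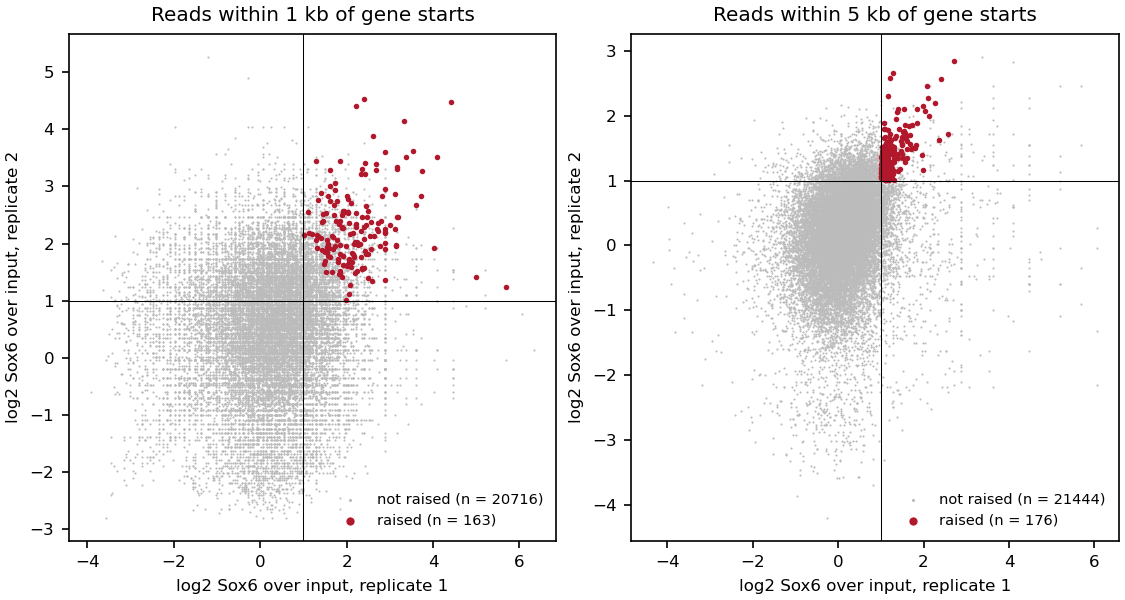
Log2 ratio of Sox6 to input in replicate 1 against that in replicate 2, with 0.5 reads added and scaled to mapped reads, for each gene start tested within 1 kb (left) and within 5 kb (right), on linear axes. Raised starts (163 and 176) are in red and lines mark a 2-fold ratio; across all starts the replicates differ widely, with the raised ones in the upper right corner by definition.

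Starts chosen in a single replicate were read in the one that had not chosen them. Of 151 starts with at least 4-fold Sox6 over input and at least 8 Sox6 reads within 1 kb in replicate 1, 60.9% were at least 2-fold in replicate 2, against 35% of all starts. Of 138 chosen in replicate 2, 53.6% were at least 2-fold in replicate 1, against 24.2%. Their median log2 ratios were 1.35 and 1.03, against 0.59 and 0.34 over all starts. Within 5 kb, 20.7% of the 82 starts chosen in replicate 1 were at least 2-fold in replicate 2, against 9.53% of all starts, with a median log2 ratio of 0.20 that did not exceed the 0.23 of all starts. Of the 21 chosen in replicate 2, 71.4% were at least 2-fold in replicate 1, against 7.33% of all starts. Across starts with at least 30 reads, without those 14, the correlation between the log2 ratios of the replicates was 0.128 within 1 kb and 0.21 within 5 kb, as a description over genes.

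Hdac11, the class IV histone deacetylase, had the largest ratio of all starts raised within 1 kb. Its start, at position 91106659 of chromosome 6 on the plus strand, had 120 and 80 Sox6 reads against 41 and 59 input reads, which is 40.2 and 54.5 RPM against 1.87 and 2.43 RPM. Both Sox6 values lay far above both inputs. The log2 ratio was 4.51 ± 0.27 (SE, 2 against 2), about 22.8-fold (adjusted p = 1.76e-57 by limma-voom). The reads peaked 350 bp before the start, where the match shown above lies 21 bp away, and of the 229 Sox6 reads within 5 kb, 200 were within 1 kb. Pol II had 15 and 28 reads in the same 2 kb.

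The other starts that the binomial test called in both replicates were Prss33, Pigq, Nhlrc4, Ndufaf3, Ubl5, Aknad1, Chrng, Hes6, 1110017F19Rik, Rhobtb2 and Tmem9. At Prss33, a serine protease gene, Sox6 had 43 and 32 reads and the inputs 27 and 43, a log2 ratio of 3.48 ± 0.29 (adjusted p = 5.69e-29). Pigq, which acts in the making of GPI anchors, had 35 and 19 against 19 and 33 reads, a log2 ratio of 3.46 ± 0.34, with the maximum 550 bp inside the gene in an intron. Nhlrc4 shares those reads, so the pair counts as 1 place. Ndufaf3, an assembly factor of respiratory complex I, had 17 and 12 against 10 and 32 reads, and Ubl5, a ubiquitin-like protein whose window overlaps that of Fbxl12, had 19 and 25 against 23 and 28. Their log2 ratios were 3.01 ± 0.43 and 2.99 ± 0.35. Aknad1 had 41 and 31 Sox6 reads against 43 and 73 (2.72 ± 0.27), and 1110017F19Rik 32 and 15 against 38 and 58 (2.38 ± 0.31). Rhobtb2 had 18 and 10 against 33 and 29 (2.26 ± 0.40), and Tmem9 17 and 15 against 27 and 50 (2.12 ± 0.36). In every one of these windows the Sox6 level in RPM exceeded both inputs in both replicates, as the plot of reads by gene start shows. This follows largely from how the starts were chosen.

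**Figure D3:**
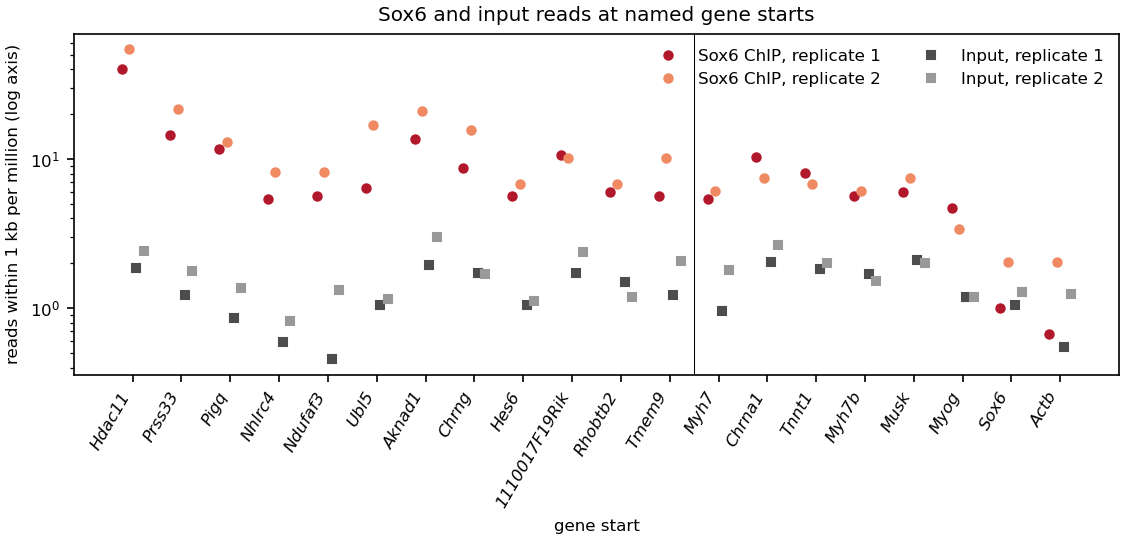
Reads within 1 kb of the start in RPM (log axis) in each Sox6 (circles) and input (squares) library. Left of the line are the 12 starts higher in both replicates by the exact binomial test; right of it are 6 raised muscle genes with Sox6 and Actb for comparison, and at the start of Sox6 itself replicate 1 lies below both inputs.

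Of the 163 starts raised within 1 kb, 17 were on 7 lists of muscle genes, called muscle starts below. The lists cover the sarcomere, excitation-contraction coupling, the neuromuscular synapse, the dystrophin complex and muscle transcription factors. Of their starts tested, 17 of 181 (9.39%) were raised, against 146 of 20698 other starts (0.705%). Genes on none of these lists, such as the raised Hspb2, count among the others whether or not they act in muscle. Within 5 kb, 15 of 181 (8.29%) were raised, against 161 of 21439 (0.751%). The median log2 ratios were 0.80 and 0.38, against 0.39 and 0.13 for the others. The lists were drawn up with earlier results of these data known, so that the shares are a description. Of the 71 raised starts with at least 8 Sox6 reads in each replicate, 13 were of these lists. By the exact binomial test 2 of the 12 starts within 1 kb were, Hdac11 and Chrng, and 15 of the 101 within 5 kb. The number of muscle starts called higher within 1 kb, 17 of 181, moved with the processing. It was 9 (4.97%, against 0.14% of the others) without input replicate 1, 27 (14.9% against 2.85%) without Sox6 replicate 1, 9 when centred on the median start and 2 (1.1% against 0.029%) when scaled to the reads in all windows. Within 5 kb 31 were called higher, with 13 when centred and 9 when scaled to window reads. Both by limma trend without weights and with 2 reads added to each count, 3 were (1.66% against 0.0233%). With the replicate number as a block 62 were (34.3% against 9.73%). The share called higher was larger in the muscle lists than in the rest under every alternative tried. With 2 reads added to each count within 1 kb it rested on 1 gene. All alternatives use the same libraries and lists, so this is no independent support.

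Muscle starts also held more Pol II, with a median of 7.63 RPM within 1 kb against 1.23 for the others. Raised starts as a whole had a median of 5.89 RPM of Pol II, against 1.23 for those not raised, and 84 of the 163 lay in the quintile with the most Pol II. In the quintiles with the least and the second least Pol II, 0 of 5 and 0 of 18 muscle starts were raised, against 0.216% and 0.361% of the others. In the next 2 quintiles 2 of 31 and 3 of 27 were, against 0.555% and 0.651%. In the quintile with the most Pol II, 12 of 100 muscle starts (12%) and 72 of 4076 others (1.77%) were raised. GC content had medians of 53.4% and 51.5% for muscle and other starts. Over all starts tested the raised share was 0.287% in the quintile with the lowest GC content and 1.245% in that with the highest. In each quintile of GC content the raised share was larger among muscle starts, from 6.06% to 14.3% against 0.193% to 1.19%. In the quintile with the most input reads 12 of 89 muscle starts (13.5%) were raised and 43 of 4087 others (1.05%). Levels within a quintile were not matched. Any part of Pol II level, of GC content or of depth in the difference was not tested.

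The counts of each list are to be read against the share raised over all starts, 0.781% within 1 kb and 0.814% within 5 kb. The genes of the neuromuscular synapse, where the motor nerve meets the fiber, were raised at 3 of 12 starts within 1 kb and at 1 of 12, Chrng, within 5 kb. Chrng, the fetal gamma subunit of the acetylcholine receptor, had 26 and 23 Sox6 reads against 38 and 41 input reads, or 8.71 and 15.7 RPM against 1.73 and 1.69. The log2 ratio was 2.63 ± 0.31 (adjusted p = 9.24e-14), with the maximum 150 bp before the start. Chrna1, the alpha subunit, had 31 and 11 against 45 and 64 reads, a log2 ratio of 2.03 ± 0.33, with its maximum also 150 bp before the start. Musk, the receptor kinase that clusters the receptors, had 18 and 11 against 46 and 49, a log2 ratio of 1.69 ± 0.37. All 3 lay above both inputs in RPM in both replicates, which follows largely from their choice as raised starts. Within 5 kb the log2 ratios were 1.55 ± 0.20 for Chrng, 0.95 ± 0.18 for Chrna1, which was called higher but not raised, and 0.59 ± 0.20 for Musk, which did not pass (adjusted p = 0.15). Chrng and Chrna1 are also among the starts with much Pol II, with 75 and 170 Pol II reads at Chrng and 96 and 204 at Chrna1.

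Of the thick filament genes 3 of 25 were raised within 1 kb and 5 of 25 within 5 kb. Myh7, the slow and cardiac beta myosin heavy chain, had 16 and 9 Sox6 reads against 21 and 44 within 1 kb, a log2 ratio of 2.09 ± 0.41. Within 5 kb it had 92 and 65 against 127 and 182, a log2 ratio of 2.42 ± 0.18 (adjusted p = 9.15e-07), and the Sox6 maximum lay 2950 bp before the start. In the 500 bp there, a place chosen by its Sox6 reads, Sox6 had 39 and 31 reads and the inputs 12 and 11. Myh7b, another slow-type myosin, had a log2 ratio of 1.90 ± 0.40 within 1 kb from 17 and 9 against 37 and 37 reads, and 1.74 ± 0.18 within 5 kb. Myh1, a fast myosin, was raised within 1 kb at 1.55 ± 0.42, but within 5 kb its log2 ratio was 0.03 ± 0.28. Myh3, the embryonic myosin, missed the threshold within 1 kb (1.32 ± 0.40, adjusted p = 0.0903) and was raised within 5 kb (1.27 ± 0.18), as were Mybph and Myl6b.

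Myh6, the alpha cardiac myosin next to Myh7, had a log2 ratio of 0.69 ± 0.67 within 1 kb and 0.16 ± 0.32 within 5 kb. Myl4, an embryonic and atrial light chain, had 0.08 ± 0.46 and -0.18 ± 0.23. Neither passed the test in either window. The study associates both with Sox6 peaks, but it assigned peaks to genes at distances beyond these windows too.

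Of the thin filament genes Tnnt1 and Tpm2 were raised within 1 kb (2 of 20) and Tnnt1, Tpm3 and Acta1 within 5 kb (3 of 20). Tnnt1, the slow troponin T, had 24 and 10 reads against 40 and 49 within 1 kb, a log2 ratio of 2.02 ± 0.36, and 1.62 ± 0.17 within 5 kb. In the read maps the maximum 1750 bp after the start of Tnnt1 was present in both Sox6 libraries, and a smaller one before the start in replicate 1 only. Tpm2, the beta tropomyosin, rested on 6 and 9 Sox6 reads (log2 ratio 2.00 ± 0.54, adjusted p = 0.0324). Tpm3, the slow tropomyosin, had 16 and 7 against 46 and 52 reads within 1 kb and did not pass there (adjusted p = 0.0981). Within 5 kb it had 100 and 57 against 187 and 214, a log2 ratio of 2.04 ± 0.15, with the maximum 4750 bp inside the gene, near the edge of the window. The slow troponins Tnnc1 and Tnni1 did not pass in either window. Their log2 ratios were 1.09 ± 0.56 and -0.86 ± 0.75 within 1 kb and 0.73 ± 0.24 and -0.47 ± 0.35 within 5 kb. The study reports Sox6 peaks in the first intron of Tnnc1 and upstream of Tnni1. The values here hold for 1 annotated start per gene, which may not be that of the study.

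**Figure D4:**
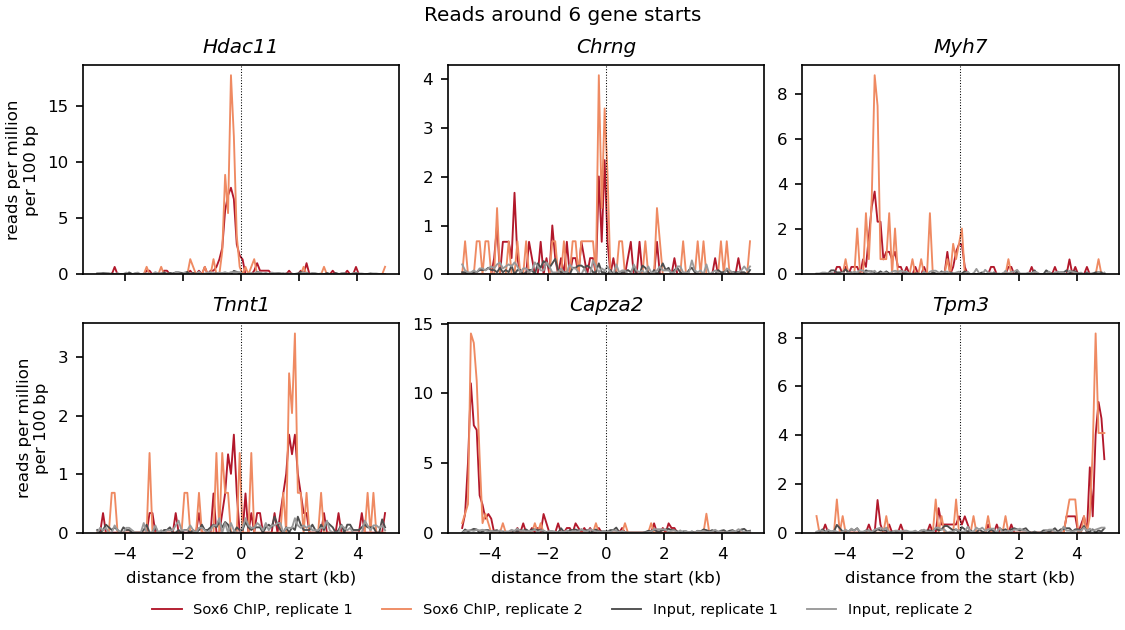
RPM in bins of 100 bp (linear axes from 0, scaled separately) against the distance from the start in kb, in the direction of the gene, in 2 Sox6 and 2 input libraries, at 6 gene starts. The maxima lie before the start at Hdac11 (350 bp), Chrng (150 bp), Myh7 (2950 bp) and Capza2 (4550 bp). They lie after the start at Tnnt1 (1750 bp) and Tpm3 (4750 bp). Each is the middle of the 3 adjacent bins with the most reads of both Sox6 libraries together. The highest single bin of a library can lie beside it, as at Chrng.

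Z-disc and M-band genes were raised at 4 of 35 starts within 1 kb, Cryab, Myom3, Smpx and Trim55, and at 2 of 35 within 5 kb, Actn2 and Xirp1. None of the 4 passed the test within 5 kb. Cryab, the small heat shock protein alpha B crystallin, shares its promoter region with Hspb2, and both had 12 and 23 Sox6 reads, so they are again 1 place. Myom3, a myomesin of the M-band, had 20 and 9 against 42 and 56 reads, a log2 ratio of 1.66 ± 0.37. Smpx, a small muscle protein encoded on the X chromosome, had 10 and 9 against 17 and 34 (1.98 ± 0.47), and Trim55, the ubiquitin ligase MuRF2, 15 and 16 against 56 and 61 (1.38 ± 0.35). Of the excitation-contraction genes 1 of 26 was raised, Jph1, which joins the T-tubule to the calcium store, with 19 and 6 against 16 and 22 reads (2.78 ± 0.47). Within 5 kb 0 of 26 were raised, with 4 called higher and 10 higher at an unadjusted p under 0.05, a level that 12.85% of all starts reached within 5 kb. There Jph1 had a log2 ratio of 0.63 ± 0.24 (adjusted p = 0.221). Of the 15 starts of the dystrophin complex and membrane repair 0 were raised in either window, and 1 within 1 kb and 0 within 5 kb were higher at an unadjusted p under 0.05.

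The muscle transcription factors and their regulators were raised at 4 of 48 starts within 1 kb, namely Hdac11, Hdac9, Six2 and Myog. Hdac9, a class IIa deacetylase that binds Mef2 factors, had 18 and 10 against 36 and 35 reads, a log2 ratio of 2.06 ± 0.39. Myog, the myogenic factor of terminal differentiation, had 14 and 5 against 26 and 29 reads (1.89 ± 0.48), and within 5 kb 56 and 35 against 175 and 190 (1.38 ± 0.18). Six2, a homeobox gene, rested on 7 and 14 reads against 5 and 13 (3.34 ± 0.58). Within 5 kb Hdac11, Myog, Myod1, the factor that sets the muscle fate, and Six5 were raised, again 4 of 48. Hes6, a bHLH protein that favours differentiation and the single raised start of 19 in the Notch list, had 17 and 10 against 23 and 27 reads within 1 kb (2.50 ± 0.41). Prox1 had 2 and 4 Sox6 reads and Sox6 itself 3 and 3 within 1 kb, and neither passed in either window (adjusted p = 0.34 and 0.827 within 1 kb). The study reports Sox6 peaks in or near Prox1 and, in an intron, Sox6. It assigned peaks to genes at distances beyond these windows too, so values around a start do not speak to peaks elsewhere. Actb, the cytoplasmic actin, had a log2 ratio of 0.67 ± 0.71.

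Among lists outside muscle, of 85 ribosomal protein starts, 39 proteasome starts, 1033 olfactory and 218 vomeronasal receptor starts within 1 kb, 0 were raised, with 1, 4, 77 and 18 higher at an unadjusted p under 0.05. Over all starts 10.7% were higher at that unadjusted level within 1 kb and 12.85% within 5 kb. None of 15 cartilage and 13 erythroid genes was raised in either window. Of these, 1 and 2 were higher at an unadjusted p under 0.05 within 1 kb, and 2 and 1 within 5 kb. Only 0.781% of all starts were raised within 1 kb and 0.814% within 5 kb, so 0 in a small list says little. Of 22 genes of glycolysis, glycogen and creatine kinase 0 were raised within 1 kb, with 4 at the unadjusted level, and 2 within 5 kb, Gapdh and Aldoa. Gapdh had 72 and 51 Sox6 reads against 169 and 238 within 5 kb (1.68 ± 0.19). Its maximum lay 4850 bp after the start, at the edge of the window, so that a higher one outside it would not be seen. Within 1 kb, 1 of 23 starts of the TGF-beta list (Bmp4), 1 of 44 of the Wnt list (Fzd4), 1 of 65 of the collagens and matrix (Lama3), 1 of 91 of oxidative phosphorylation (Ndufaf3), 1 of 75 of the heat shock proteins (Hspb2), 2 of 61 histone genes (Hist1h4j and Hist4h4) and 2 of 352 Zfp genes (Zfp367 and Zfp451) were raised. The share of the Zfp genes, 0.568% on 2 starts, lay near the 0.781% of all starts. The histone genes have near-identical copies, and Bmp4 rested on 3 and 4 Sox6 reads against 5 and 3 in the inputs, so these are uncertain.

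**Figure D5:**
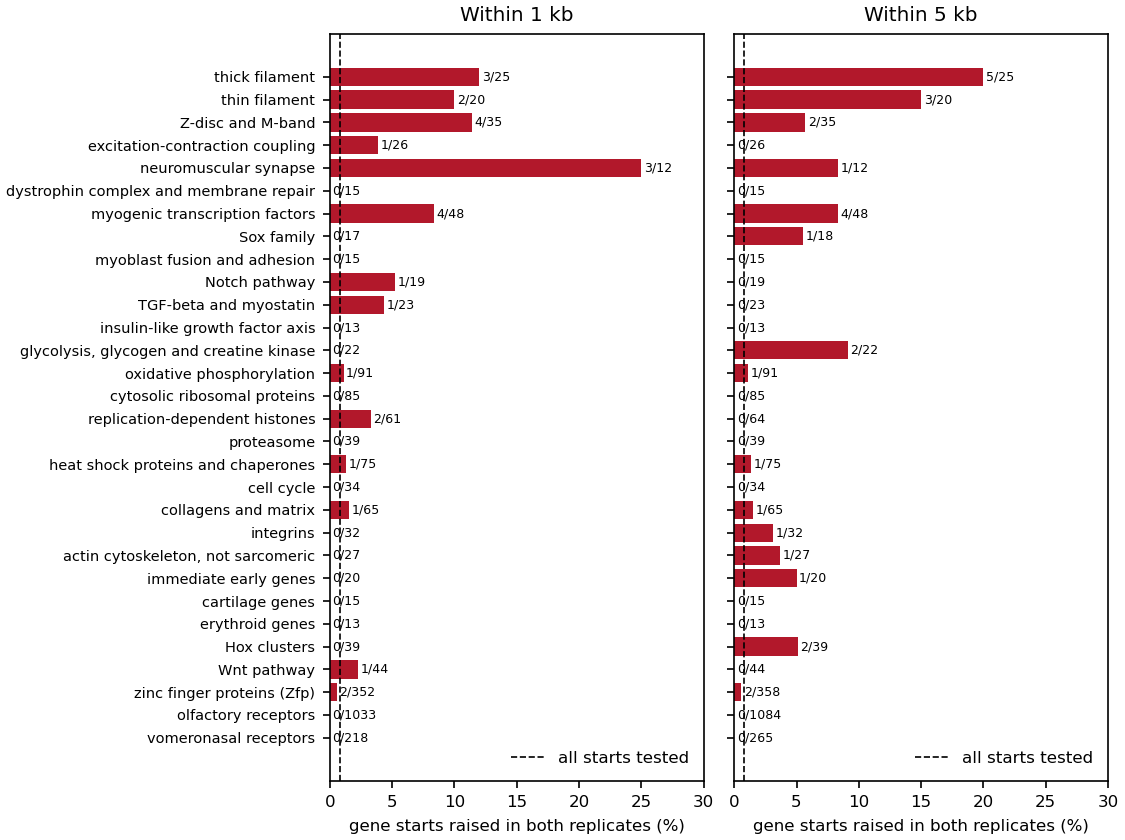
Share of the gene starts tested that were raised in both replicates (percent, linear axis from 0) in each gene list, within 1 kb (left) and within 5 kb (right), with the number raised of the number tested beside each bar and the share of all starts (0.781% and 0.814%) as a dashed line. The highest bars are the neuromuscular synapse within 1 kb (3 of 12) and the thick filament within 5 kb (5 of 25), both on few genes.

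Some of the largest fitted ratios within 1 kb stood on very few reads. Of the 15 raised starts with the largest log2 ratio, Cyp2d9, Dnahc7a, 4930503E14Rik, 6330403L08Rik, Gm8257, Gm4695, Bmp4, Gm10528, Cyp24a1 and Pfdn4 had under 8 Sox6 reads in a replicate, as had Six2. The others were Hdac11, Prss33, Pigq and Nhlrc4. Cyp2d9, for instance, had 3 and 4 Sox6 reads against 1 and 6 in the inputs. The 4 starts called lower, Ttc15, D19Bwg1357e, Nek7 and Cno, had 0 reads in both Sox6 libraries and between 31 and 57 in each input. On simulated counts the same fit called more than 4 unchanged starts lower within 1 kb and, less often, some higher. Calls in both directions may therefore include errors. The simulation had a set spread and lacked the general shift of these data, so how often such errors occur here is not known. The exact binomial test called 0 starts lower in both replicates within 1 kb, and 308 were lower at an unadjusted p under 0.05 in the fit. The 4 starts called lower are not taken as differences.

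The 10 starts with the largest ratios within 5 kb that were not raised within 1 kb were Capza2, Gm6096, Plekhg5, Kpna1, Ctxn2, Tpm3, Psg27, Oas1h, Nisch and Hspa1b. Capza2, a subunit of the capping protein of actin filaments, had 150 and 83 Sox6 reads against 260 and 250 within 5 kb, a log2 ratio of 2.25 ± 0.15, but 5 and 2 against 49 and 46 within 1 kb. Its reads lay 4550 bp before the start, where 500 bp held 100 and 68 Sox6 reads and 17 and 20 input reads. At Kpna1, an importin, and Plekhg5 the maxima lay 2950 bp after and 4250 bp before the start. Psg27, Oas1h and Hspa1b belong to families of near-identical copies, and Psg27 and Oas1h had under 13 Sox6 reads in each replicate. Nisch, with 74 and 35 against 151 and 158 reads (1.88 ± 0.17), has a window that overlaps that of Sema3g and also held 308 and 668 Pol II reads.

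The place of the reads differed among the raised starts. Within 1 kb the Sox6 maximum lay upstream of the gene at 105 of the 163 (64.4%), in an exon at 29 and in an intron at 26. The upstream share of the other starts was not counted. At 51 (31.3%) the maximum was within 250 bp of the start, against 24.1% of the other starts. Where bins tied, as at starts without Sox6 reads, the bin furthest upstream was taken. This bears on all shares of the other starts around the maximum. In the 401 bp around the maximum a Sox match (ACAAAG or ACAATG, both strands) was present at 83 of the 163 (50.9%), at 45 of the 71 with at least 8 reads (63.4%), and at 39.8% of the starts not raised. In 401 bp around the start itself it was present at 31.9% of the raised starts and 29.4% of the others. An E-box (CAGCTG or CAGGTG, both strands), the motif of Myod1 and Myog, was present around the maximum at 110 of the 163 (67.5%) and at 41.5% of the starts not raised. GGAATG, the core of the Tead motif, was present at 26.4% and 20.2%, and CCACA, part of the Runx motif, at 71.8% and 68%. Around the start itself the shares of raised and other starts were 54% and 42.6% for the E-box, 15.3% and 16.2% for GGAATG, and 70.6% and 63.3% for CCACA. At Chrng a CAGCTG directly precedes the Sox match in the sequence shown above. These shares depend on base composition and are descriptions of the letters only.

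The called Sox6 peaks were compared only after these calls. The lists held 2888 and 1734 peaks in the replicates and 1066 common peaks. Within 1 kb, 26 of the 163 raised starts (16%) overlapped a common peak, against 16 of 20716 starts not raised (0.0772%). Of the 71 with at least 8 Sox6 reads in each replicate 25 did (35.2%), and of the 12 called by the binomial test 9 did (75%). Of the 163, 108 (66.3%) overlapped no peak of either replicate. Within 5 kb, 53 of 176 raised starts (30.1%) and 84 of 21444 others (0.392%) overlapped a common peak. Peaks and windows were counted from the same reads, so that the overlap is no independent support. Among muscle starts, Hdac11, Chrng, Chrna1, Myh7, Myh1, Hdac9, Cryab and Trim55 overlapped a common peak within 1 kb, whereas Musk, Myog, Tnnt1, Myh7b, Myom3, Smpx, Jph1, Tpm2 and Six2 did not. Hes6, Tmem9 and 1110017F19Rik, which the binomial test called in both replicates, overlapped a peak of 1 replicate only.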

How the data were processed

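Read positions and peak positions were used as deposited. Per the study's methods and the labels, the authors aligned single-end reads with Bowtie 0.12.5 to NCBI Build 37 (mm9), kept reads that map to 1 place, and called Sox6 peaks against the input of each experiment. The deposited files hold positions only, with no counts. Reads were 36 bp in input replicate 1 and 39 bp in the others. Between 2.96% and 7.88% of reads repeated a position and were kept. Whether replicates came from separate cultures is not stated beyond independent ChIP experiments. The p-values therefore measure the spread between these libraries, which the fit estimates largely over all starts and not start by start.

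Read 5' ends were counted around the start of each gene of GENCODE M1 (same build), with 1 model per symbol (22225 of 22367 on chromosomes 1 to 19, X and Y). limma 3.58.1 (R 4.3.3) with voom weights was fitted to the counts of 2 Sox6 and 2 input libraries, scaled to mapped reads, two-sided, with Benjamini-Hochberg adjustment at 0.05 over all starts with at least 10 reads. SE is that of the fitted log2 ratio. On simulated counts the fit also called some unchanged starts, higher and, within 1 kb more often, lower. Ratios per replicate had 0.5 reads added. The maximum is the middle of the 3 adjacent 100 bp bins with the most Sox6 reads of both libraries, with ties given to the bin furthest upstream. Python 3.11.15 was used elsewhere.

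Named genes were the 15 largest raised ratios within 1 kb, the 10 largest raised only within 5 kb, at most 5 called lower in each window, every raised list member within 1 kb, and Myh7, Myh7b, Myh6, Myh3, Myl4, Tnnc1, Tnni1, Hdac11, Prox1, Sox6 and Actb. Others named were chosen after their values were seen. The gene lists, members and tests were chosen with earlier results of these data known. The study's methods pair each ChIP with an input. Deviations of same-numbered libraries correlated at 0.0349 within 1 kb and 0.00325 within 5 kb, over 2 pairs, so the main fit had no block. Few Sox6 reads per start can keep such a correlation low, so it cannot show that the pairing has no effect. Other settings are given below.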

Additional observations from a re-analysis of the deposited data

How the results depend on the processing

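Within 1 kb the count of higher starts moved by over 1.5 times under 9 of 18 alternatives and that of raised starts under 8 of 15. Within 5 kb these were 10 of 18 and 7 of 15, and the count of 0 lower starts changed under 2 of 18. Counting repeated positions once, at least 30 reads, the start of the longest transcript, 5' ends moved 75 bp, 1 start per run of overlapping windows and leaving out starts with over 300 input reads moved none of the counts of higher and raised starts by that much. Within 1 kb the 167 higher and 163 raised starts became 91 and 91 by limma trend without weights, 8 and 8 when scaled to reads in all windows, 38 and 36 when centred on the median start, 1 and 1 with 2 reads added, 266 and 256 without a filter, 63 and 63 with 500 bp to each side, and 12 and 12 by the exact binomial test. With at least 8 Sox6 reads in each replicate, 71 were raised. Leaving out 1 library gave between 38 and 616 higher starts. In these fits the lone library of a group is assumed to vary like the other group, from which alone the spread was estimated. The 4 lower starts became 0 (trend, 2 reads added, 500 bp, binomial), 11 (centred), 7 (repeated positions once), 1 (no filter), 18 (at least 30 reads), 8 (start of the longest transcript), 8 (5' ends moved 75 bp) and, with a replicate left out, 0 to 23. Within 5 kb the 455 higher and 176 raised starts became 8 and 8 by trend, 45 and 33 scaled to window reads, 117 and 76 centred, 8 and 8 with 2 reads added, and 101 and 94 by the binomial test. With 10 kb to each side 79 were raised. Leaving out 1 library gave 93 (without Sox6 replicate 2) to 1002 (without input replicate 2) higher and 0 to 42 lower starts. The cause of these differences was not tested.

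With the replicate number as a block, 132 starts were higher within 1 kb and 19 lower, and within 5 kb 2149 were higher, 268 raised and 6 lower. These fits have 1 residual degree of freedom per start and share the spread over starts.

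At named starts the direction reversed within 1 kb when the start of the longest transcript was used, for Fam63a (log2 ratio -0.25), Cnot6l (-0.46), Cln8 (-0.48) and Prpsap1 (-0.026), and with 500 bp to each side for 4930442H23Rik (-0.60) and Dapk3 (-0.66). The share of raised starts with a common Sox6 peak was 15.3% within 1 kb and 29% within 5 kb by peak centre. With repeated positions counted once, 2.32% and 2.87% of Sox6 reads and 1.85% and 2.04% of input reads lay within 1 kb of a start.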
